A study of Homo sapiens with 3 samples.

Results

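Collagen genes were described in RNA-seq of teratomas, benign tumours in which pluripotent cells differentiate into many tissues, grown from H1, an established human embryonic stem cell line. Members were all genes whose symbol has the form of a collagen chain, from COL1A1 to COL28A1, and these were 44 of the 27307 genes listed. H1 cells grown on Matrigel in E8 medium were injected subcutaneously, 1000000 at a time, into SCID-beige mice, which are immunodeficient. Tumours were collected after 3 to 4 weeks. The 3 polyadenylated RNA libraries, teratomas 1, 2 and 3 by replicate number, are labelled with no treatment or genetic change and were compared with no other group. Whether each library came from a tumour of its own is not stated in the labels, so the spread between libraries may be technical. Host cells are part of such tumours, and a step that removes mouse reads is not given in the sources used here.

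Collagens are secreted proteins of the extracellular matrix in which 3 chains wind into a triple helix. Fibrillar collagens form the cables of skin, bone, tendon and cartilage. Network collagens form sheets, among them the basement membranes under epithelia and around vessels. FACIT collagens (fibril-associated collagens with interrupted triple helices) sit on the surface of fibrils, beaded filament collagens link cells to the surrounding matrix, and transmembrane collagens span the cell membrane. In a teratoma, collagen transcripts are made mainly by mesenchymal derivatives such as connective tissue and cartilage, and basement membrane chains also by epithelium and endothelium.

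Collagen transcripts were abundant in teratomas 1 and 2 and far lower in teratoma 3. Levels are RPKM (reads per 1000000 and per kilobase of transcript), and a value ± another is a mean ± SD over the 3 libraries (n = 3). The RPKM of the 44 genes summed to 2775, 2138 and 643 in teratomas 1, 2 and 3, a 4.31-fold difference between the highest and the lowest library. These sums were 0.933%, 0.744% and 0.233% of the RPKM of all genes. In reads they rested on 697051, 536529 and 150880, and the library totals that the values imply were 46.2, 45.8 and 43.6 in units of 1000000 reads. Without teratoma 3 the highest and lowest sums differed 1.30-fold. In bulk RNA, fewer cells that make collagen and less collagen RNA per cell cannot be told apart.

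Most classes were lower in teratoma 3 by a similar factor, 3.34-fold to 5.17-fold from highest to lowest library in the 5 classes with the highest sums. The share of fibrillar genes in the collagen sum was 66.03%, 63.6% and 58.7% in teratomas 1, 2 and 3 (62.8% ± 3.72). The beaded filament class held 15.2% ± 1.97, the network class 7.92% ± 0.880, the multiplexins 6.16% ± 1.08 and the FACIT class 4.77% ± 1.07. Transmembrane collagens held 0.584% ± 0.240 and COL7A1, the anchoring fibril collagen, 0.0582% ± 0.0453. The 2 genes outside these classes, COL26A1 and COL28A1, held 1.60% and 1.59% in teratomas 1 and 2 and 4.27% in teratoma 3. COL1A1, COL3A1 and COL1A2 together made up 54.0%, 54.7% and 49.6% of the collagen sum.

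**Figure D1:**
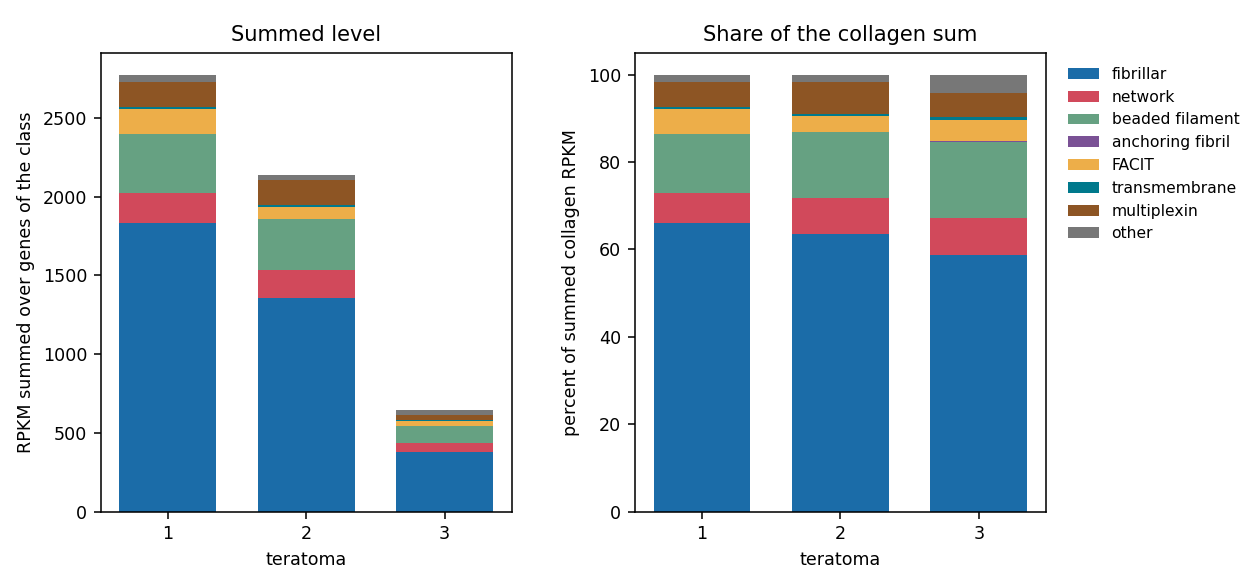
Summed RPKM of the collagen genes of each class in teratomas 1, 2 and 3 (left, stacked bars), and the same as percent of each library's collagen sum (right). The stacks reach 2775, 2138 and 643 RPKM, while the fibrillar share stays between 58.7% and 66.03%.

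Of the 44 genes 27 reached 1 RPKM in all 3 libraries, called detected below, which among all genes was the case for 52.7%. Another 8 stayed under 1 RPKM in each library, beside 10779 of all 27307 genes, and 9 crossed that level. A gene with a mean of 1 RPKM or more was called varying when log2(RPKM + 1) in its highest library exceeded that in its lowest by 1 or more, a scale that understates the differences of low genes. Of the 15701 genes with that mean 3142 (20%) were varying. Genes both varying and lowest in teratoma 3 were 11.8% of the 15701, in teratoma 1 7.5% and in teratoma 2 0.726%. Genes both varying and highest in teratoma 1 were 7.80%, in teratoma 2 4.67% and in teratoma 3 7.55%. Among the collagen genes 33 had that mean, 11 did not, and 29 were varying. In each of the 29 teratoma 3 was the lowest. Without the size of difference, 38 of the 44 were lowest in teratoma 3. The same held for 10296 of all 27307 genes and for 48.1% of genes with that mean. The 27307 include 4022 genes with 0 reads in each library, and these are not among the 10296. With no filter on the mean, 29 of 44 collagen genes and 12.1% of all genes passed the difference. The highest library was teratoma 1 in 24 of them and teratoma 2 in 5. A difference of at least 2 was found for 12 collagen genes and for 2.65% of all genes with that mean. The median difference was 1.82 for the 33 collagen genes, and 0.45 for all genes with that mean. Nearest to the threshold were COL13A1, just inside at 1.00, and COL8A1, just outside at 0.92.

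**Figure D2:**
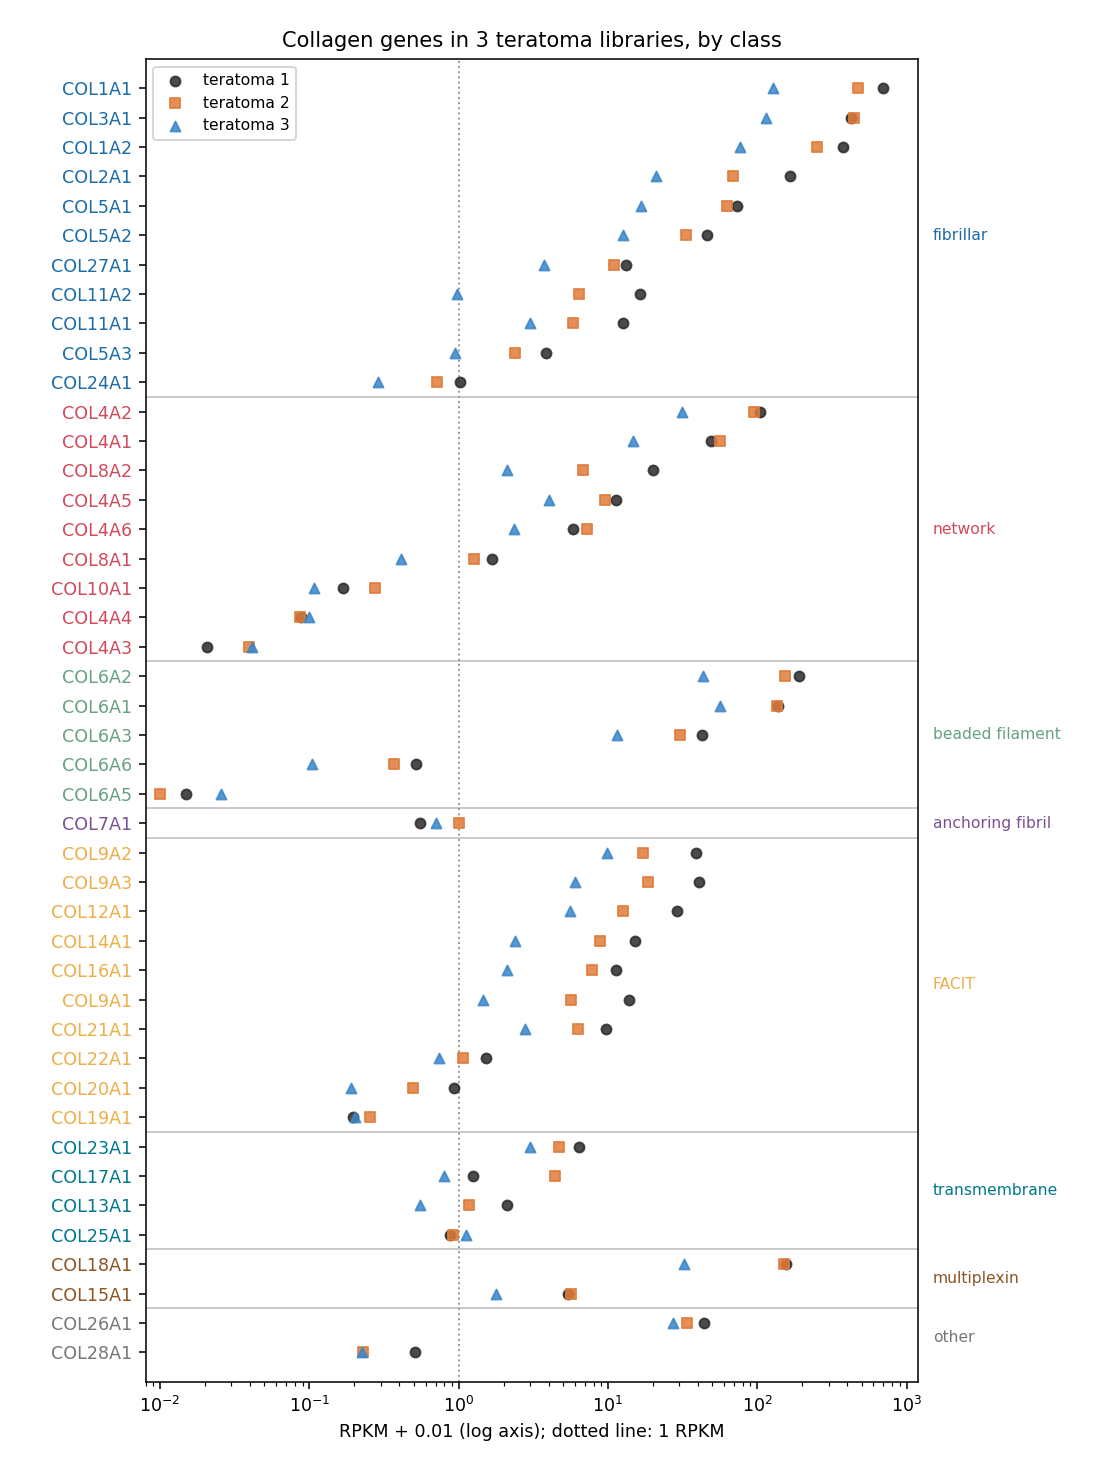
RPKM + 0.01 (log axis) of each of the 44 collagen genes, ordered by class and mean level, with 1 symbol per library. Teratoma 3 is the leftmost symbol for most genes, and COL6A5, with 0 reads in teratoma 2, marks the lower end.

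Marker genes of other cell types moved with the libraries as well, and their part in the collagen differences was not tested. Of 14 fibroblast and mesenchyme markers without collagens, 13 were lowest in teratoma 3, and their summed level was 759.8, 651 and 241 RPKM. FN1, fibronectin, stood at 239.7, 268 and 55.3 RPKM and POSTN, periostin, at 52.8, 29.9 and 10.7. All 9 endothelium markers were lowest in teratoma 3 (sum 52.1, 54.3 and 14.95). In contrast, all 12 neuron markers were varying and highest there (sum 883, 1121 and 2973). Over the 15701 genes 48.1% were lowest in teratoma 3 with no size of difference, and 7.55% were varying and highest there. None of these markers was at 0 reads in all 3 libraries.

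Type I and type III, the main collagens of connective tissue, led the fibrillar class. COL1A1, the alpha1 chain of type I, stood at 699, 475 and 128 RPKM in teratomas 1, 2 and 3 (434 ± 288). It was the 29th most abundant transcript of teratoma 1, the 40th of teratoma 2 and the 206th of teratoma 3. COL1A2, the alpha2 chain, stood at 374, 250.5 and 76.4 RPKM (234 ± 149). COL3A1, the chain of the type III homotrimer of pliable tissues, stood at 427, 443 and 114 RPKM (328 ± 185). It was thus 0.963 times as high in teratoma 1 as in teratoma 2, whereas COL1A1 and COL1A2 were 1.47-fold and 1.49-fold higher in teratoma 1. The ratio of COL3A1 to COL1A1, chosen after the values were seen, was 0.610, 0.932 and 0.894.

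COL2A1, the collagen of hyaline cartilage, stood at 166, 68.9 and 20.9 RPKM (85.4 ± 74.1), a 7.96-fold difference between teratomas 1 and 3. Its partners in the cartilage fibril, the type XI chains COL11A1 and COL11A2, were lower. COL11A1 stood at 12.5, 5.82 and 2.99 RPKM and COL11A2 at 16.5, 6.37 and 0.967. The listed COL11A2 transcript with the highest mean is 901 bases long, with 38 reads in teratoma 3. The 3 full-length COL11A2 transcripts gave the same order of libraries, with 15.2, 3.84 and 0.934 RPKM for the highest of them. All COL11A2 transcripts carry a number taken as 7 genome placements, and the other collagen genes 1. How reads at several placements were counted is not given in the sources used here.

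The chains that regulate fibril diameter, type V, followed type I at a lower level. COL5A1 stood at 73.5, 62.3 and 16.5 RPKM, COL5A2 at 46.1, 33.1 and 12.7, and COL5A3 at 3.83, 2.36 and 0.932. The ratio of COL5A1 to COL1A1, also chosen after the values were seen, was 0.105, 0.131 and 0.129. COL27A1, a fibrillar collagen of developing cartilage, stood at 13.2, 10.9 and 3.69 RPKM. COL24A1 had the lowest level of the class, at 1.00, 0.705 and 0.279 RPKM. In each of the 11 fibrillar genes teratoma 3 was the lowest library.

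COL2A1 is listed in the files in both of its splice forms, which differ by exon 2. The form with exon 2 (type IIA) is known from chondroprogenitors and non-cartilage embryonic tissue, and the form without it (type IIB) from mature chondrocytes. The sequences below, from the GENCODE v29 transcripts that correspond to both entries, show the exon in capitals with 20 bases of exons 1 and 3 in lower case, because the reads of this exon separate the forms.
COL2A1 with exon 2: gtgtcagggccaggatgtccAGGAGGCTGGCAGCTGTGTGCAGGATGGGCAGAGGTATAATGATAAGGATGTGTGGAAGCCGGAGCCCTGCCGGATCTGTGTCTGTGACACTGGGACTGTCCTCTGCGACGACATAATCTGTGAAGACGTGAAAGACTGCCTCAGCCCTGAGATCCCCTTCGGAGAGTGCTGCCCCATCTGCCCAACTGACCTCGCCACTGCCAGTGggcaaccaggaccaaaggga
COL2A1 without exon 2: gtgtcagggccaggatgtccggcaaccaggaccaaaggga

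The 207 bases of exon 2 equal the difference in length between both entries. The longer entry held 1405, 718 and 275 reads more than the shorter one in teratomas 1, 2 and 3. Per base these came to 147, 75.7 and 30.5 RPKM, beside 166, 68.9 and 20.9 RPKM for the shorter entry. The density over exon 2 was thus 88.2% of the shorter entry in teratoma 1 (95% exact Poisson interval of the exon's reads, 83.7% to 93.0%), 109.8% in teratoma 2 (101.9% to 118%) and 146% in teratoma 3 (129% to 164%). The intervals of the 3 libraries did not overlap, and the library with the most COL2A1 had the lowest value. They cover counting error only, and reads that span a splice junction or fall unevenly along the transcript also move the percentage, which can therefore exceed 100.

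Among network collagens the ubiquitous basement membrane chains COL4A1 and COL4A2 led. COL4A2 stood at 104, 95.4 and 31.3 RPKM (76.8 ± 39.6) and COL4A1 at 49.2, 56.0 and 14.8 (40.0 ± 22.1). COL4A5 stood at 11.3, 9.59 and 3.997 RPKM, and COL4A6, which joins it in the basement membranes of smooth muscle and some epithelia, at 5.79, 7.25 and 2.33. Teratomas 1 and 2 were close for these 4 chains, and teratoma 3 was the lowest for each. COL4A3 and COL4A4, which with COL4A5 build the membrane of the mature kidney glomerulus, were near 0. COL4A3 rested on 4, 11 and 11 reads (0.0107, 0.0297 and 0.0312 RPKM) and COL4A4 on 37, 36 and 40 reads (0.0774, 0.0760 and 0.0887 RPKM).

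The 6 type IV genes lie in 3 head-to-head pairs, whose starts face away from each other across a shared promoter. They are shown because 1 pair was abundant, 1 intermediate and 1 near 0. Windows of 250 bases before to 50 after a start were available from RefSeq on GRCh38.p14, and the starts lay 127 bases apart for COL4A1 and COL4A2, 419 for COL4A3 and COL4A4, and 380 for COL4A5 and the nearer of the starts of COL4A6. Capitals mark matches, on either strand, to a GC box (GGGCGG or CCGCCC) or a CCAAT box (CCAAT or ATTGG). No TATA box (TATAAA or TTTATA) was found in these 3 windows.
COL4A2, chr13:110307034-110307333, plus strand: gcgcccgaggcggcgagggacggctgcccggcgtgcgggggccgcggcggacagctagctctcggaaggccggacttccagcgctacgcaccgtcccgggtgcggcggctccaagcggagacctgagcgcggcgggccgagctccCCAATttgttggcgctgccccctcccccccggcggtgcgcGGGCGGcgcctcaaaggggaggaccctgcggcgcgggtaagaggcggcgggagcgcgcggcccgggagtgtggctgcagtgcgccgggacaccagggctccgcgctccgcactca
COL4A3, chr2:227164374-227164673, plus strand: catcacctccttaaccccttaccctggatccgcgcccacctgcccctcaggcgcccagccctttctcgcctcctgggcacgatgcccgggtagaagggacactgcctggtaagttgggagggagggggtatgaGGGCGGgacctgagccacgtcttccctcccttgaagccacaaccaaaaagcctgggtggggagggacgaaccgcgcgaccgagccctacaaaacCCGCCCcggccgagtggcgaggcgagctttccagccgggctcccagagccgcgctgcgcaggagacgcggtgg
COL4A5, chrX:108439588-108439887, plus strand: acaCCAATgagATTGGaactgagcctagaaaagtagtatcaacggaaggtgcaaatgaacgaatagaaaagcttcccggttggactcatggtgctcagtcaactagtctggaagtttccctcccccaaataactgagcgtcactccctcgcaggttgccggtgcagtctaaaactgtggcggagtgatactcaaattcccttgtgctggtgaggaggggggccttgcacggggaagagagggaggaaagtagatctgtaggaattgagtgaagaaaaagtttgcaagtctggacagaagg

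The COL4A2 window held 1 GC box and 1 CCAAT box, the COL4A3 window 2 GC boxes, and the COL4A5 window 2 CCAAT boxes. Their GC content was 77.7%, 67.7% and 49.3%, beside a median of 58.7% over all promoter windows. A GC box occurs in 45.0% of all 35116 windows, a CCAAT box in 34.6% and a TATA box in 11.5%, so these matches are descriptions and not sites. Among the 44 windows found for 32 of the collagen genes the shares were 54.5%, 31.8% and 18.2%. In RNA level the COL4A1 to COL4A2 ratio was 0.474, 0.588 and 0.472 (mean 0.347 with the mean over transcripts of each gene) and the COL4A5 to COL4A6 ratio 1.96, 1.32 and 1.72. COL4A3 was lower than COL4A4 in each library, and no ratio is given for its 4, 11 and 11 reads.

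The other network collagens were uneven. COL8A2, a chain of the hexagonal lattice under corneal and vessel endothelium, stood at 20.1, 6.82 and 2.08 RPKM, a 9.66-fold difference between teratomas 1 and 3. Its partner COL8A1 was lower, at 1.65, 1.25 and 0.401 RPKM. COL10A1, the collagen of hypertrophic cartilage, stood at 0.158, 0.265 and 0.0976 RPKM on 24, 40 and 14 reads. It thus stayed low in teratoma 1, where COL2A1 was highest.

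The beaded filament class consisted of type VI, a matrix component around most mesenchymal cells. COL6A2 stood at 191, 153 and 43.6 RPKM (129 ± 76.6), COL6A1 at 138, 135 and 56.4 (109.9 ± 46.3), and COL6A3 at 42.9, 30.1 and 11.4 (28.2 ± 15.8). COL6A1 differed 2.44-fold between its highest and lowest library, less than COL6A2 at 4.38-fold. The chains that can replace COL6A3 in type VI were low. COL6A6 stood at 0.506, 0.361 and 0.0948 RPKM. COL6A5 was represented by 2, 0 and 6 reads, and 3 reads, the limit that a count of 0 allows, would be 0.00737 RPKM in teratoma 2. COL7A1, which builds the fibrils that anchor epidermis to dermis, stood at 0.545, 1.00 and 0.695 RPKM, highest in teratoma 2.

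FACIT collagens showed the largest excess of teratoma 1 over teratoma 2 of the classes with more than 3 genes tested, with a median of 0.91 in log2(RPKM + 1), beside 0.54 for the fibrillar and 0.17 for the network class, and 0.02 for the 15701 genes. The type IX chains, which coat cartilage fibrils, led the class. COL9A2 stood at 38.7, 17.1 and 9.79 RPKM, COL9A3 at 40.8, 18.6 and 5.98, and COL9A1 at 13.9, 5.62 and 1.44. COL12A1 and COL14A1, which bind type I fibrils in dense connective tissue, stood at 28.8, 12.6 and 5.59 and at 15.2, 8.89 and 2.38 RPKM. COL16A1 stood at 11.4, 7.76 and 2.10 RPKM and COL21A1 at 9.64, 6.31 and 2.78. COL22A1, of tissue junctions such as muscle and tendon, stood at 1.51, 1.06 and 0.725, and COL20A1 at 0.917, 0.487 and 0.181. COL19A1 was the lowest of the class, at 0.186, 0.245 and 0.192 RPKM on 75, 98 and 73 reads.

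Transmembrane collagens were low and did not share 1 order of libraries. COL23A1 stood at 6.39, 4.71 and 3.02 RPKM and COL13A1, of the neuromuscular junction, at 2.08, 1.16 and 0.537. COL17A1, the hemidesmosome collagen of basal epidermal cells, stood at 1.23, 4.38 and 0.785 RPKM and was highest in teratoma 2, 5.58-fold above teratoma 3. Of the 8 epidermis markers 7 were varying and each of these was highest in teratoma 2, beside 4.67% of the 15701 genes. KRT5, a basal keratin, stood at 4.14, 54.1 and 9.95 RPKM. The summed level of the 8 markers was 24.3, 248.5 and 49.9 RPKM, and its part in the COL17A1 values was not tested. COL25A1, a neuronal collagen needed for motor innervation, stood at 0.869, 0.910 and 1.11 RPKM on 186, 193 and 225 reads. It was thus highest in teratoma 3, as were the neuron markers, but its 95% exact Poisson intervals overlapped, at 0.748 to 1.00 in teratoma 1 and 0.974 to 1.27 in teratoma 3.

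Multiplexins, collagens of basement membrane zones whose ends release anti-angiogenic fragments, held 1 abundant gene. COL18A1 stood at 156, 152 and 32.2 RPKM (114 ± 70.5), 1.03-fold higher in teratoma 1 than in teratoma 2 and 4.85-fold lower in teratoma 3 than in teratoma 1. COL15A1 stood at 5.37, 5.60 and 1.77 RPKM. COL26A1, an atypical collagen first described in testis and ovary, stood at 43.9, 33.7 and 27.3 RPKM (34.9 ± 8.36). Its 1.61-fold difference was the smallest of the 33 collagen genes that reached that mean. COL28A1, known from peripheral nerve, stood at 0.498, 0.217 and 0.215 RPKM. COL26A1 ranked well below COL2A1 in teratoma 1 and above it in teratoma 3.

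Teratomas 1 and 2 differed in 8 collagen genes, among them the 3 type IX chains. At least 1 in log2(RPKM + 1) separated them for 8 of the 33 collagen genes. COL2A1, COL9A1, COL9A2, COL9A3, COL11A2, COL8A2 and COL12A1 were higher in teratoma 1, and COL17A1 was higher in teratoma 2. Over the 15701 genes the shares were 0.955% for teratoma 1 above teratoma 2 and 1.53% for the reverse. The excess in teratoma 1 was 2.41-fold for COL2A1, 2.47-fold for COL9A1 and 2.95-fold for COL8A2. COL11A1, at 2.15-fold, lay just under the threshold (0.99). COL27A1 was 1.21-fold higher in teratoma 1, under the threshold, and COL10A1 was lower there than in teratoma 2. In contrast, COL3A1, COL4A1, COL4A6 and COL15A1 were slightly lower in teratoma 1 than in teratoma 2.

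Chondrocyte markers other than collagens were read beside these values. Of 11 chondrocyte markers 7 were varying, each of them highest in teratoma 1 and lowest in teratoma 3. Over the 15701 genes 7.80% were varying and highest in teratoma 1, and 11.8% were varying and lowest in teratoma 3. The part of these markers in the collagen values was not tested. Of the other 4, SOX5 stood at 3.83, 4.14 and 5.91 RPKM, highest in teratoma 3, and COMP at 0.291, 0.498 and 0.0842, highest in teratoma 2 (both named after their values were seen). ACAN, the cartilage proteoglycan aggrecan, stood at 5.04, 1.74 and 0.166 RPKM and MATN4, a matrilin, at 27.4, 2.92 and 0.672. SOX9, the factor that drives COL2A1 in chondrocytes and is also made in neural progenitors, stood at 49.1, 33.9 and 34.05 RPKM. The summed level of the 11 markers was 119, 61.4 and 49.6 RPKM, and none was at 0 reads in all 3 libraries. Of 8 osteoblast markers 3 were detected, beside 52.7% of all genes. These were SPP1 at 22.5, 10.3 and 5.47 RPKM, ALPL at 12.2, 19.9 and 5.28, and BGLAP at 3.99, 2.59 and 1.79. Another 4 were under 1 RPKM in each library, beside 10779 of all 27307 genes. Among the 4 was DMP1 with 0 reads in each library.

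**Figure D3:**
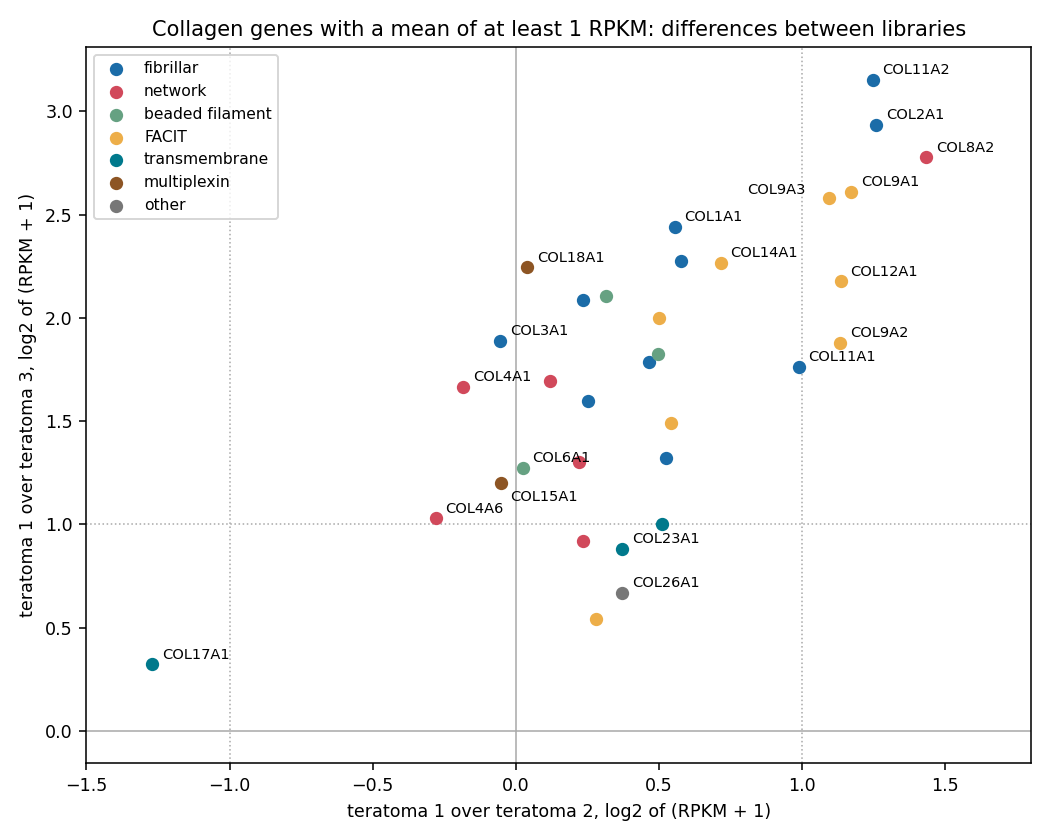
Difference of teratoma 1 from teratoma 2 (horizontal) and from teratoma 3 (vertical), in log2 of (RPKM + 1), for the 33 collagen genes with a mean of 1 RPKM or more, coloured by class, with dotted lines at differences of 1. COL8A2 lies farthest right, followed by COL12A1 and type II, IX and XI chains, with COL11A1 just under the dotted line. COL3A1, COL4A1, COL15A1 and COL18A1 lie near 0 on the horizontal axis, and COL17A1 alone at the left.

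Ratios between chains of 1 collagen type differed between libraries by 1.13-fold for COL1A1 over COL1A2 and up to 4.07-fold for COL11A1 over COL11A2. This was less than the levels of the chains, as both chains of each such pair were lowest in teratoma 3. Ratios between types, chosen after the values were seen, differed 1.25-fold for COL5A1, 1.53-fold for COL3A1 and 1.64-fold for COL2A1, each over COL1A1. A narrow ratio was thus not particular to chains of 1 type. Ratios were formed where both chains had at least 20 reads in each library, which left out COL4A3 and COL4A4. COL1A1 over COL1A2 was 1.87, 1.90 and 1.67 (1.81 ± 0.122), while COL1A1 itself differed 5.46-fold. The type I molecule is known to hold alpha1 and alpha2 chains in unequal number, with more alpha1. COL4A1 over COL4A2 was 0.511 ± 0.0660 and COL5A1 over COL5A2 1.59 ± 0.289. COL6A3 over COL6A1 was 0.312, 0.223 and 0.202, and COL6A1 over COL6A2 was 0.721, 0.883 and 1.29, which rested on the choice of the COL6A2 transcript. With the longest transcript of each gene COL6A1 over COL6A2 was 1.32, 1.49 and 2.17.

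The ratios of the type VIII, IX and XI chains had a wider spread than those of type I and type IV. COL9A1 over COL9A2 was 0.360, 0.329 and 0.148, and COL9A3 over COL9A2 was 1.05, 1.09 and 0.611, so that COL9A2 was relatively high in teratoma 3. COL11A1 over COL11A2 was 0.760, 0.914 and 3.09, where teratoma 3 rested on 38 reads of the short COL11A2 transcript. With the longest transcripts it was 0.837, 1.59 and 3.25. Both versions also rest on an unknown counting of reads at the 7 placements of COL11A2. In type VIII, COL8A1 over COL8A2 was 0.0819, 0.184 and 0.192, lowest in teratoma 1.

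**Figure D4:**
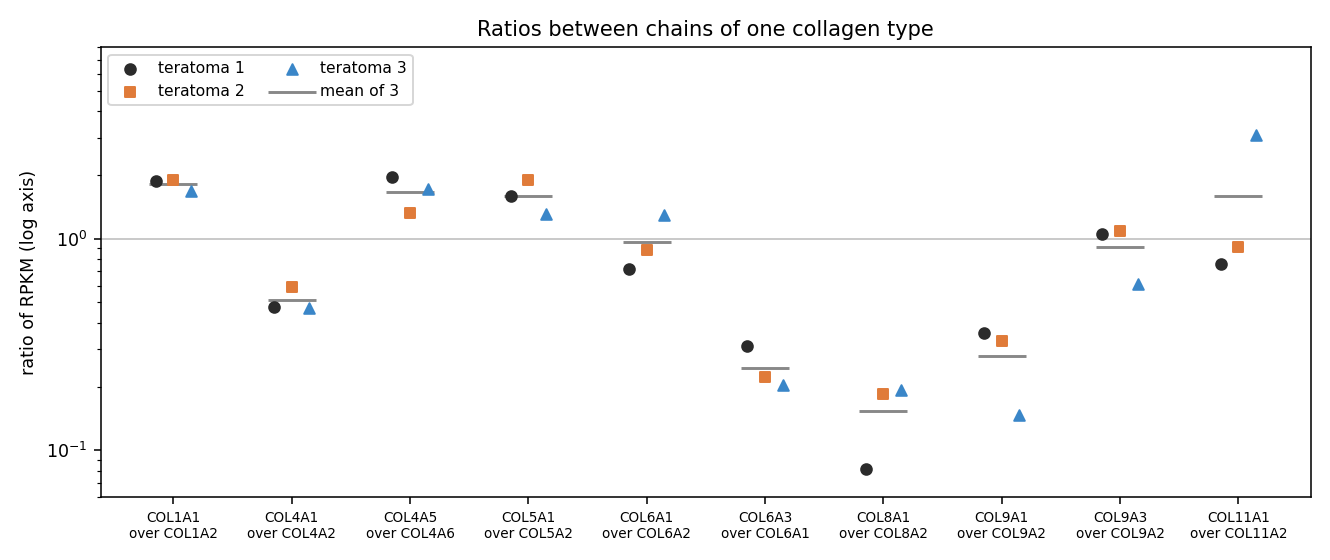
Ratio of RPKM (log axis) between chains of 1 collagen type in each library, with a grey bar at the mean of the 3. COL1A1 over COL1A2 stays between 1.67 and 1.90, whereas COL11A1 over COL11A2 runs from 0.760 to 3.09.

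Of the collagen genes 19 were listed with more than 1 transcript, and these share exons and reads. Entries that differ by whole exons allowed the reads of those exons to be read off, as for COL2A1, in comparisons chosen after the values were seen. COL12A1, whose large form carries additional fibronectin-like and von Willebrand domains in exons 3 to 17, held 827, 483 and 226 reads in those 3492 bases. Their density was 17.8%, 24.0% and 26.5% of that of the short form (22.8% ± 4.51). For COL6A3, exon 3 (618 bases) held 4, 7 and 5 reads, or 0.358%, 0.895% and 1.78% of the density of the entry without it. The other 2 alternative exons of COL6A3, 1203 bases in all, held 612, 512 and 170 reads, or 25.6%, 30.8% and 28.4%. In COL11A1, exons 7 and 8 (348 bases) held 134, 130 and 48 reads, or 66.4%, 140.05% and 106%, with 95% exact Poisson intervals of 55.7% to 78.7%, 117% to 166% and 77.9% to 140.1%.

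Transcripts with alternative ends were listed for other members. Their values below include reads of shared exons, so they do not measure how often an end was used. The long COL9A1 transcript of cartilage had 0.922, 0.912 and 0.739 times the RPKM of the short one, which starts at its own first exon and is known from the eye. A COL4A1 transcript of 2575 bases had 0.337, 0.381 and 0.351 times the level of the full-length one. For COL6A2, the transcript NM_058174, with another last exon, had 0.597, 0.648 and 0.652 times the level of NM_001849. COL25A1 was represented by a transcript annotated as non-coding, at 0.869, 0.910 and 1.11 RPKM, and NM_198721, the highest of its coding transcripts, stood at 0.842, 0.900 and 1.08.

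Genes that modify and fold collagen were in part varying. Of 15 hydroxylation and glycosylation genes 14 were detected, beside 52.7% of all genes. Of the 15 genes 6 were varying, each lowest in teratoma 3, beside 11.8% of the 15701 genes. PPIB, a prolyl isomerase of the endoplasmic reticulum, stood at 294, 257 and 158 RPKM, and P4HB, the beta subunit of prolyl 4-hydroxylase, at 273, 288 and 145. The prolyl 3-hydroxylases P3H3 and P3H2 differed most, at 27.1, 19.5 and 8.13 and at 9.82, 9.54 and 3.04 RPKM. The summed level of the list was 848, 799 and 441 RPKM, a 1.92-fold difference, beside 4.31-fold for the collagens. Of the genes that were not varying, named after their values were seen, COLGALT2 stood at 1.64, 1.63 and 3.42 RPKM, highest in teratoma 3, and P4HA1 at 16.9, 27.2 and 17.96, lowest in teratoma 1. Among 10 folding and secretion genes 9 were detected and 4 were varying, again lowest in teratoma 3, beside the same shares. MIA3, an exit site protein for large cargo that was not varying and was named after its values were seen, stood at 5.62, 5.98 and 8.31 RPKM, highest in teratoma 3. SPARC, a collagen-binding matrix protein, stood at 276, 259.8 and 103 RPKM. SERPINH1, the collagen chaperone HSP47, stood at 173, 147 and 48.1 RPKM, and CREB3L1, a factor that activates collagen genes in osteoblasts, at 13.3, 11.2 and 3.72.

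Other enzymes process and cross-link collagen outside the cell. Of 8 procollagen processing genes 4 were detected and 4 had a mean of 1 RPKM or more. PCOLCE, an enhancer of the C-proteinase, alone was varying, at 81.6, 43.2 and 12.9 RPKM. Both counts were near the shares over all genes, 52.7% detected and 20% of the 15701 varying. BMP1, the C-proteinase itself, stood at 20.03, 16.7 and 9.94. Of 6 cross-linking genes 4 were detected and 4 varying. Each of the varying was lowest in teratoma 3, beside 11.8% of the 15701 genes. The lysyl oxidase LOXL1 stood at 38.3, 30.3 and 9.40 RPKM, LOXL2 at 20.04, 15.6 and 5.56, and the transglutaminase TGM2 at 3.61, 6.68 and 0.821. LOX, named after its values were seen, stood at 11.6, 14.8 and 10.52 RPKM. Over the genes of each list with a mean of 1 RPKM or more, the median difference between highest and lowest library in log2(RPKM + 1) was 0.99 for hydroxylation and glycosylation, 0.74 for folding and secretion, 0.89 for processing, 1.46 for cross-linking and 1.06 for receptors, beside 0.45 for the 15701 genes.

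Collagen receptors were split. Of 11 receptor genes 5 were detected, near the 52.7% of all genes. Under 1 RPKM in each library were 4, beside 10779 of all 27307 genes. Another count was 4 varying, each lowest in teratoma 3, beside 11.8% of the 15701 genes. The summed receptor level was 234, 212 and 212 RPKM. DDR1, a receptor tyrosine kinase of epithelial and neural cells, was the most abundant and highest in teratoma 3, at 125, 126 and 164 RPKM, whereas DDR2, its mesenchymal relative (named after its values were seen), stood at 4.80, 2.93 and 1.59. ITGB1, the common beta subunit of the collagen integrins, stood at 55.8, 48.0 and 26.3 RPKM, and MRC2, an endocytic collagen receptor, at 40.6, 29.4 and 16.8. ITGA11, a type I collagen integrin of fibroblasts, stood at 2.93, 1.30 and 0.710.

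The remaining marker lists gave these counts. Of 8 glia markers 5 were varying, 4 of them lowest in teratoma 3, beside 20% and 11.8% of the 15701 genes. SOX10 stood at 21.6, 11.3 and 3.99 RPKM. Of 6 podocyte markers 3 were detected, beside 52.7% of all genes. Under 1 RPKM in each library were 2, beside 10779 of all 27307 genes. NPHS1, nephrin of the glomerular filter, stood at 4.07, 0.769 and 0.292 RPKM, beside COL4A3 and COL4A4 near 0. All 7 liver and yolk sac markers were varying and each was highest in teratoma 2, beside 4.67% of the 15701 genes. AFP, a fetal plasma protein, stood at 452, 1889 and 159 RPKM, an order that the collagen sum did not follow.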

How the data were processed

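The authors deposited 1 table per library with, for 59443 transcript entries, an RPKM value, a length, a read count and a symbol. Per the submitters' processing notes Bowtie2 and hg19 were used, while a counting tool and strand setting were not given in the sources used here. The deposited RPKM equal the deposited count over the product of length and a total specific to each library. The deposited length and a last number, taken as genome placements, were the same in all tables. Each gene was represented by the entry with the highest mean RPKM. All 3 libraries form 1 group, so no test between groups was made. Chi-square per gene between pairs of libraries was 57.7, 313 and 233, where sampling noise alone gives about 1, so no table repeats another. This does not show that the libraries came from separate tumours. With counts and no contrast, results are levels, ratios and shares beside the same over all genes. The range call was tested on simulated data. Members, classes, lists and thresholds were chosen with earlier results of these data known. Named were the 3 highest and the lowest member of each class, each varying member, each chain pair, and of the other lists the 2 leading members by level and by difference, of which the text gives a selection. Of list symbols, 6 older aliases matched no entry. Protein features were not analysed here. Alternatives covered the entry per gene, scaling, detection level, pseudocount, filter, size of difference and each library left out. Python 3.11.15 was used with numpy 2.4.6, pandas 2.3.3, scipy 1.17.1 and matplotlib 3.10.9.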

Additional observations from a re-analysis of the deposited data

How the results depend on the processing

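The collagen genes varying numbered 12 with a difference of at least 2 in place of 1, and 8 to 28 when each library was left out. The 8 were found without teratoma 3, where 2.56% of genes were varying. Shares of varying genes in this paragraph are of genes with a mean of 1 RPKM or more at the setting named. Without teratoma 1 there were 24 (12.7% of genes) and 28 without teratoma 2 (17.4%). Rescaling to 1000000 per library gave 33 varying collagen genes of 39 with that mean (26.6% of genes with that mean). Median-of-ratios scaling gave 28 (19.9%) and a pseudocount of 0.1 gave 31 (26.6%). Those scalings lowered the median of teratoma 1 over teratoma 3 over all genes by 0.11 and 0.10 in log2. Detection at 5 RPKM left 16 genes. The highest over the lowest collagen sum was 1.30 to 4.31 with a library left out, the lowest without teratoma 3, and the rescaled mean sum was 6367 per 1000000. The beaded filament share was 12.7% with the longest entry. COL6A1 over COL6A2 was 1.66 with the longest entry and 1.31 with the mean over entries, and COL4A1 over COL4A2 was 0.347 with the mean over entries. The call for COL13A1 was lost with the longest entry, with the mean over entries and with median-of-ratios scaling. At the median length of 2500 bases, 3 reads correspond to 0.0259, 0.0262 and 0.0275 RPKM. No paired analysis was possible because the libraries form 1 group.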

Other observations

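Some collagen genes lie next to each other among protein-coding genes, and neighbours differed in level. By the RefSeq gene order of GRCh38.p14, 7 pairs of collagen genes are adjacent. COL3A1 and COL5A2 on chromosome 2 stood at means of 328 and 30.6 RPKM, and COL19A1 and COL9A1 on chromosome 6 at 0.208 and 6.99. COL6A1 and COL6A2 on chromosome 21 were close, at 109.9 and 129. COL6A5 and COL6A6 on chromosome 3 were both low, at 0.00679 and 0.320. The other 3 adjacent pairs are the type IV pairs on chromosomes 13, 2 and X.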
